A study of Mus musculus with 10 samples.

Results

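The liver of CD1 mice, an outbred laboratory strain, was compared with 9 other tissues of the same strain on a microarray built to measure alternative splicing. Liver was 1 of 10 samples. It was chosen by its label, and its array was set against the median of the other 9 arrays (under the labels' names, testis, spleen, salivary, muscle, lung, kidney, intestine, heart and brain). Each sample was total RNA pooled from the tissue, with no treatment or genotype given. The labels used here do not give the age, the sex or the number of animals in a pool. With 1 sample per tissue no difference below has a replicate check or a p-value. Every count describes these arrays, and so few arrays limit how precise it is. In bulk RNA, fewer cells of a type and less RNA per cell cannot be told apart.

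Liver tissue consists mostly of hepatocytes, which make most plasma proteins and carry out much of the metabolism of nutrients, bile acids and foreign compounds, so that many transcripts are abundant there and scarce elsewhere. A cassette exon is an internal exon that the splicing machinery can join into the mature transcript or leave out. When it is included, the transcript holds the junctions of that exon with the exon on either side. When it is skipped, the flanking exons are joined to each other. The array measured these forms with 7 probes for each of 3126 events. Probes C1 and C2 lay in the flanking exons and A in the alternative exon. C1:A and A:C2 spanned the inclusion junctions, and C1:C2 the skipping junction. What the seventh probe, marked INT, measures is not given in the labels or the table. INT probes were the dimmest kind, and their median of 1.21 over all arrays serves below as a mark for low signal. The files pair the event numbers with no gene names, so neither hepatocyte markers nor markers of other cells could be used to check the label, events cannot be assigned to pathways, and events of the same gene cannot be recognised.

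Values lay on a compressed scale that stops at 0 and whose base is not stated, so differences are stated in its units, and no fold is given. The liver array had a median of 2.10, against 2.04 to 2.19 in the other arrays, and each array was centred on its median before arrays were compared. Its values were the most spread of the 10, with an SD of 1.43 over probes, against 1.18 to 1.42 in the others. It had 3.16% of its probes at exactly 0, against 0.635% to 3.33% in the others. The transcript level averaged the probes C1 and C2. The junction index averaged both inclusion junctions and subtracted the skipping junction. A difference was called where liver lay at least 4 robust SDs of all such differences in the 10 tissues from the median of the others, which came to 2.15 units for the level, 1.61 for the junction index and 2.16 for the A probe.

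Liver departed from the other tissues mainly by higher transcript levels. The level was higher in liver in 119 of 3126 events (3.81%) and lower in 4 (0.128%). The same rule called between 20 and 210 events higher in each of the other tissues and between 1 and 10 lower. Values cannot fall below 0, and in only 64.9% of events was the level elsewhere high enough for liver to be called lower. Across all events the level differences in liver had an SD of 0.95 units, against 0.575 to 1.15 in the other tissues, and a median of 0.07. Liver had the highest level of the 10 tissues in 14.2% of events and the lowest in 11.9%.

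**Figure D1:**
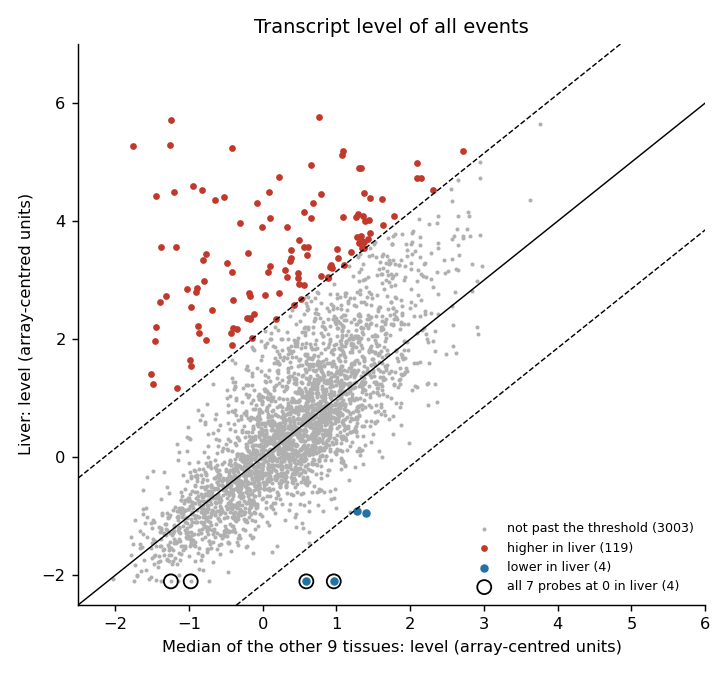
Transcript level of each of 3126 events in liver (vertical axis) against the median of the other 9 tissues (horizontal axis), in units centred on each array's median. The solid line marks equal levels and the dashed lines the threshold of 2.15 units. The 119 events higher in liver lie above the upper dashed line. Of the 4 lower events, 2 are among the 4 circled events whose 7 probes all read 0 in liver.

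Among the 119 higher events, the median difference in level was 2.93 units. Both flanking probes passed the threshold of their own probe kind in 81 events, only 1 of them in 30, and neither alone in 8. The probes that do not enter the level were usually higher too. A was called in 78 of the 119 events, against 3.45% of all events, with a median difference of 2.64. C1:A was called in 77 (3.39% of all events) and A:C2 in 78 (3.61%). The skipping junction C1:C2 was called in 73 (2.94%), with a median difference of 2.33. In 37 of the 119 events all 6 exon and junction probes passed. The INT probe was called in 8 of the 119 events, against 0.512% of all events, and its median difference in the 119 events was 0.10.

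In 87 of the 119 events (73.1%) C1 and C2 read above the median of the INT probes both in liver and in the median of the other tissues, close to the share of all events, 73.9%. In 19 of the 119 the mean of both flanks elsewhere lay below it. Liver was the highest of the 10 tissues in 103 of the 119. The gap to the next tissue was usually small, with a median of 0.82 units, and it reached the threshold of 2.15 units in 24 events. Kidney was the tissue nearest to liver. It had the highest level outside liver in 57 of the 119 events (47.9%), against 475 of all 3126 (15.2%). Testis was highest outside liver in 16.0% of the 119 events, against 23.7% of all events, and intestine in 12.6%, against 8.83%. The centred level of the 119 events had a median of 3.48 in liver, against 2.08 in kidney, 0.91 in intestine and 0.41 in heart. In the remaining 6 tissues the median lay between 0.05 and 0.25, close to the array median. Kidney exceeded liver in 8 of the 119 events, testis in 5, intestine in 4 and brain in 1.

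**Figure D2:**
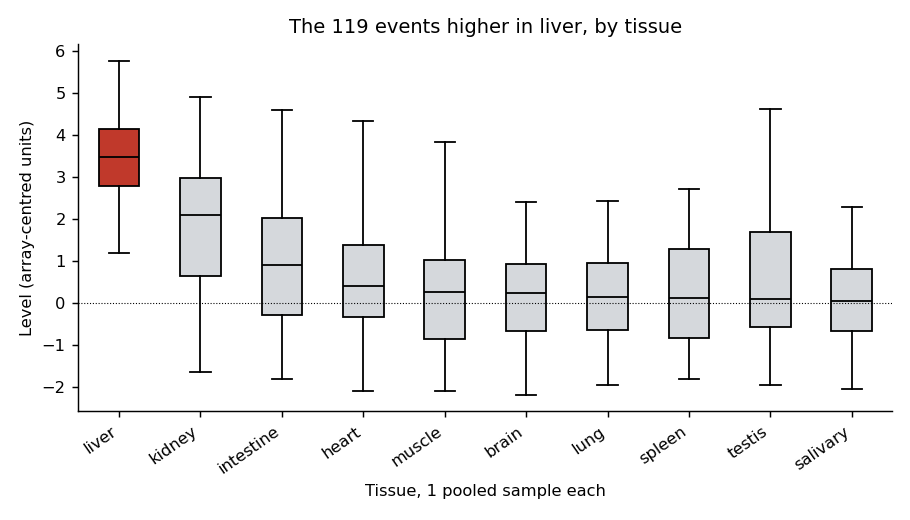
Level of the 119 events higher in liver, by tissue, in array-centred units. Boxes span the quartiles with the median as a line, whiskers run to the lowest and highest event, and 0 is the median of each array. Liver stands at a median of 3.48, kidney at 2.08 and intestine at 0.91. The events were chosen by their high level in liver, so the position of the liver box is set by the choice.

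Of the higher events measured on both sides, Ben758 and Ben1227 had the largest differences in level. The C1 probe of Ben758 read 8.05 in liver, against a lowest value of 2.71 in brain, a median of 3.31 and a highest value of 4.19 in spleen. Its C2 probe read 7.68 in liver, against 1.64 to 3.61 elsewhere, and its A probe 6.85, against 0.666 to 2.58. No other tissue came near liver in any of these exon probes, and liver lay 4.998 units above the others in level. The junction probes gave another picture in testis. C1:A read 7.03 in liver, against 6.51 in testis and a median of 1.725 over the 9 tissues, and C1:C2 read 7.65 in liver, against 6.23 in testis and a median of 2.68. Testis thus read far above the remaining tissues at these junctions of Ben758, and nearly as high as liver at C1:A. It did not do so in the flanking exons.

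Ben1227 was shared with kidney. Its C1 probe read 6.36 in liver, against 5.34 in kidney and a median of 1.54 over the other tissues, and its C2 probe 6.65 in liver, against 5.66 in kidney. The A probe read 4.51 in liver, against 3.79 in kidney and a median of 1.40. The level lay 4.93 units above the other tissues in liver, while kidney lay 3.86 above its own other tissues. The comparisons of liver and kidney share 8 tissues.

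The lower events were few, and 2 of the 4 rested on values of 0. In 4 events every probe, INT included, read exactly 0 in liver: Ben3415, Ben1694, Ben2695 and Ben705. Such events numbered between 0 and 6 in the other arrays and 20 over all arrays. The C1 probe of Ben3415 read 0 in liver, against 2.38 to 4.67 elsewhere with a median of 3.21, and C2 read 0, against 2.64 to 5.55 with a median of 3.30. The level of Ben3415 differed by -3.07 units, and that of Ben1694 by -2.69. An event listed at 0 in all probes gives no size, and whether the RNA was absent or the spots gave no value was not tested. The INT probe of Ben2695 also read 0 in liver, against 1.74 to 3.40 in the other tissues.

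The other lower events, Ben879 and Ben114, did not read 0 in liver, but their flanks read near or below the INT median there. The A probe of Ben879 read 1.28 in liver, against a lowest value of 1.62 in intestine, a median of 3.90 and a highest value of 5.29 in brain. It was the lowest of the 10 tissues and the only low call of an A probe measured on both sides. Against the mean of the other tissues it differed by -2.16 units and was no longer called. The C1 probe of Ben879 read 1.20 in liver, against 1.21 in intestine and a median of 2.95. Its C2 probe read 1.11 in liver, against 1.09 in intestine and a median of 3.88. All 6 exon and junction probes of Ben879 were below the median of the others, with differences between -1.05 and -2.83 units. Ben114 differed by -2.18 in level. Its 6 exon and junction probes were lower in liver than in every other tissue, whereas INT read 2.24 in liver, against a median of 1.71. No lower event had both flanks above the INT median on both sides, and the 4 lower events and the events at 0 in all probes, like the exons singled out below for their steady level, were named after their values were seen.

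The A body probe followed the level for most events. It was higher in liver in 108 events (3.45%) and lower in 2 (0.064%), Ben705 and Ben879. Of the 108 higher events, 91 (84.3%) were measured on both sides, against 74.4% of all events. The A-high and level-high events had 78 in common, 72.2% of the first list and 65.5% of the second. In the 30 events with a high A probe and no level call, the level was usually higher without passing the threshold, with a median difference of 1.63 units and a range from -0.39 to 2.14. In the 41 events with a high level and no high A probe, A differed by a median of 1.14 units and by -0.57 at the lowest. Of those 41 exons, 12 were called more skipped and 0 more included. Of the 78 with both, 3 were called more skipped and 7 more included. Over all exons that could be tested, 1.49% were called more skipped and 0.522% more included. The exon calls, described below, required the same direction in A relative to the flanks. Splitting high-level events by their A probe therefore partly sets these counts. Relative to the flanks, that is as A minus the level, the alternative exon was higher in 23 events (0.736%) and lower in 55 (1.76%).

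The highest A probes measured on both sides belonged to Ben15 and Ben4245. The A probe of Ben15 read 7.86 in liver, against a lowest value of 1.15 in brain, a median of 1.80 and a highest value of 2.88 in heart. The A:C2 junction of Ben15 read 7.42 in liver, against 1.83 to 2.84 elsewhere. Its C1, C2, C1:A and C1:C2 probes were also higher in liver, but their medians elsewhere lay below that of the INT probes, so those differences give no exact size. The A probe of Ben4245 read 7.11 in liver, against 3.54 in kidney and a median of 1.39, and its C1:A junction read 8.09, against 5.70 in kidney and a median of 1.72. All 6 exon and junction probes of Ben4245 were highest in liver, with kidney second in each.

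The splicing index was compared next. An exon was testable where the mean of C1 and C2 exceeded the lowest 25% of probe values in liver and in the median of the others, which held for 2683 events. A call also required the same direction in A relative to the flanks. Of the testable exons, 14 were more included in liver (0.522%) and 40 more skipped (1.49%). In the other tissues the same rule called 4 to 50 exons more included and 11 to 66 more skipped. The included exons had a median index difference of 2.13 units and the skipped ones of -1.93. The average of the inclusion junctions and the skipping junction were each above the INT median on both sides for 9 of the 14 included and 17 of the 40 skipped exons, against 63.2% of the testable exons. Over all testable exons the index of liver leaned the other way. Liver had the highest index of the 10 tissues in 15.4% of them and the lowest in 8.76%. This lean was not particular to liver. Testis (19.3% and 12.7%), brain (15.2% and 11.1%) and kidney also had the highest index more often than the lowest. In heart, intestine, lung, muscle, salivary and spleen the lowest was more frequent. The median index difference of liver over all events was 0.09 units, small beside the threshold of 1.61.

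**Figure D3:**
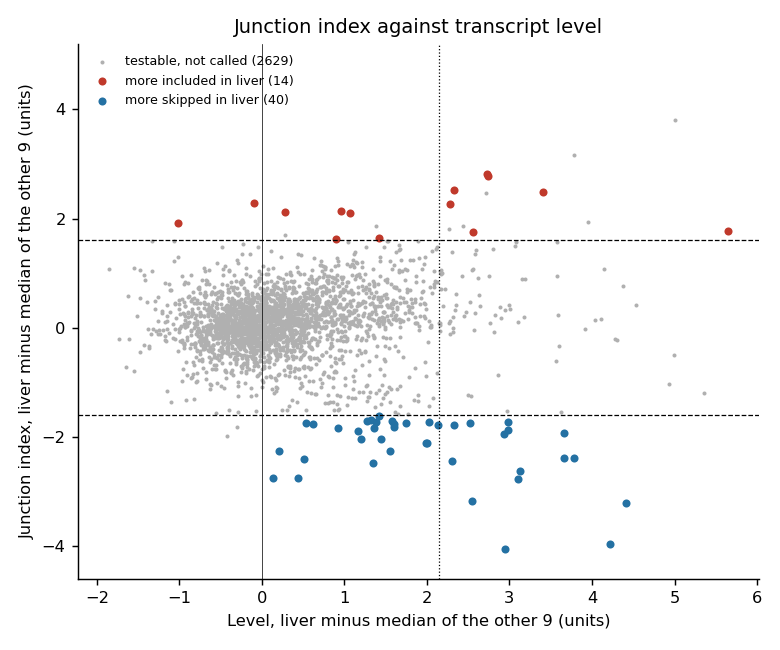
Junction index difference (vertical axis) against level difference (horizontal axis), each liver minus the median of the other 9 tissues, for 2683 testable exons. Dashed lines mark the index threshold of 1.61 units and the dotted vertical line the level threshold of 2.15. All 40 exons more skipped in liver lie to the right of 0, in transcripts whose level was above the others.

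Exon calls gathered in transcripts with a high level in liver. Of the 98 testable events with a high level, 15 were more skipped (15.3%) and 7 more included (7.14%). Of the other 2585 testable events, 25 were more skipped (0.967%) and 7 more included (0.271%). The level difference was above 0 for all 40 skipped exons and for 12 of the 14 included ones, against 57.9% of the testable exons. A relative to the flanks contains C1 and C2, as the level does. By the junction index alone, which shares no probe with the level, 45 of all events passed the threshold downward and 28 upward. The level was above the others in 42 of the 45 and 25 of the 28, against 54.3% of all events. Sharing no probe does not free the index from the level where 1 junction form stays at low signal. In the 7 included exons with a high level, C1:C2 differed by a median of 0.40, against 2.73 for the level. In the 15 skipped ones, C1:A differed by 0.54 and A:C2 by 0.27, against 2.99 for the level. How far the index followed the level was not tested.

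The skipped calls rested on the skipping junction and the flanks. In the 40 skipped exons C1:C2 was higher in liver by a median of 2.22 units, C1 by 1.71 and C2 by 1.78. The inclusion probes stayed near the other tissues, with median differences of -0.02 for A, 0.09 for C1:A and -0.13 for A:C2. C1:C2 was above the others in all 40, whereas both inclusion junctions were below the others in 15 and above them in 13. The mean of the inclusion junctions in liver lay below the INT median in 14 of the 40, where a lower value could hardly have been read. For 29 of the 40, each inclusion junction taken alone against C1:C2 also passed the threshold. These differences share the C1:C2 probe and their mean chose the exons, so they are no separate check. A relative to the flanks passed its own threshold of 1.53 units in 19 of the 40. In the 15 skipped exons of high-level transcripts, C1 was higher by a median of 2.93 units and A by 0.44.

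The included calls had the opposite make-up. In the 14 included exons A was higher by a median of 2.72 units, C1:A by 2.09 and A:C2 by 2.62, while C1:C2 differed by -0.08. Both inclusion junctions were above the others in 13 of the 14 and A in all 14. The A probe alone was called in 9, of which 7 also had a high level. A relative to the flanks, whose direction was part of the call, passed its own threshold of 1.53 units in 2 of the 14. Each inclusion junction taken alone against C1:C2 passed the index threshold in 8. The skipping junction was below the others in 8. In the 7 included exons without a level call C1 and C2 differed from each other, with medians of -0.23 and 1.65.

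**Figure D4:**
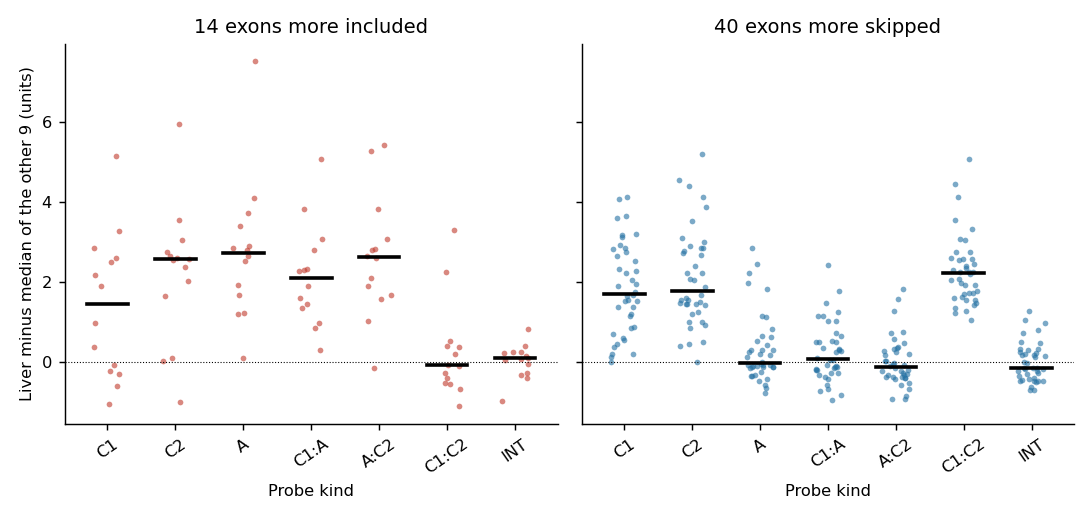
Difference of each probe kind, liver minus the median of the other 9 tissues, for the 14 exons more included in liver (left) and the 40 more skipped (right). Each point is an exon and the black bar the median. Among skipped exons C1:C2 and the flanks are higher while A and the inclusion junctions centre on 0, and among included exons A and the inclusion junctions are higher while C1:C2 centres on 0. The exons were chosen by the junction probes, the direction of A relative to the flanks and a filter on the flanks. The positions of all these probes are therefore a description.

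Kidney was again the nearest tissue. In the 40 skipped exons kidney had the lowest index outside liver in 15 (37.5%), against 273 of the 2683 testable exons (10.2%), testis in 9 (22.5%), against 13.9%, and intestine in 8, against 9.54%. In the 14 included exons kidney had the highest index outside liver in 8 (57.1%), against 483 of the 2683 testable exons. Liver lay beyond every other tissue in 32 of the 40 skipped and 11 of the 14 included exons.

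The exons of Ben1145 and Ben1913 had the largest upward index differences among called exons measured on both sides, and kidney read high in both. In Ben1145 the A:C2 junction read 6.33 in liver, against 5.82 in kidney and a median of 2.50, while C1:C2 read 2.96 in liver, against 2.51 in kidney and a median of 2.45. The inclusion probes of Ben1145 were thus far above most tissues at nearly the same skipping signal. Its index differed by 2.78 units in liver and by 2.63 in kidney against its own others, and the level was 2.73 units higher in liver. All 7 probes of Ben1145 read 0 in salivary. In Ben1913 the A:C2 junction read 5.27 in liver, against 6.84 in kidney and a median of 2.55, and C1:C2 read 2.55 in liver, against 3.42 in kidney and a median of 3.07. Its index differed by 2.52 in liver and 3.11 in kidney. Liver was second to kidney in the inclusion junctions and the A probe of Ben1913.

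Among called exons measured on both sides, the largest downward index differences belonged to Ben2970 and Ben2579. In Ben2970 the C1:C2 junction read 5.89 in liver, against a lowest value of 0.829 in spleen, a median of 1.85 and a highest value of 2.84 in kidney. C1:A read 1.85 in liver, against a median of 1.40, and A:C2 read 1.29 in liver and 1.29 as the median of the others. Of its junctions only C1:C2 set liver apart, and the index of Ben2970 differed by -4.06. The A probe was also higher in liver, at 2.38 against 0.392 to 0.957. In Ben2579 the C1:C2 junction read 5.22 in liver, against 3.79 in kidney and a median of 1.69, and its index differed by -3.96. The flanks of Ben2579 were higher by 4.12 (C1) and 4.54 (C2) units. The median of C1 elsewhere, 0.985, lay below that of the INT probes, so the C1 difference gives no exact size. The C2 probe of Ben2579 read 6.04 in liver, against 5.56 in brain. Its A probe read 1.32 in liver, against 1.06 to 1.65 elsewhere, so the alternative exon of Ben2579 read near the INT median in all 10 tissues. Its C1:A junction read 0.799 in liver, below the INT median, as did the median of the others. In liver the level of Ben2579 differed by 4.22 and A relative to the flanks by -4.36. In kidney the index of Ben2579 differed by -2.38 and its level by 2.96. Whether exon use changed beside the level in Ben2970 and Ben2579 was not tested.

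Few calls lay in transcripts whose level was close to that of the other tissues. Within 1 robust SD of the level (0.537 units) were 57.0% of the testable exons, but 6 of the 54 called ones (11.1%), of which 2 were more included and 4 more skipped. The included exons with such a steady level, Ben319 and Ben663, were measured on both sides. In Ben319 the C1:A junction read 3.47 in liver, against a lowest value of 0.452 in testis, a median of 1.86 and a highest value of 4.16 in kidney. Its A probe read 3.57 in liver, against a median of 2.35, and its C1:C2 junction 2.02, against a median of 2.63. C1 and C2 differed by -0.23 and 0.03, so inclusion and skipping probes of Ben319 parted at a level close to that of the others. Liver was second to kidney in the A probe and both inclusion junctions of Ben319, and the index differed by 2.28 units.

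In Ben663 the tissue above liver was intestine. The C1:A junction read 3.33 in liver, against 3.71 in intestine, a median of 1.07 and a lowest value of 0.26 in brain. A read 3.27 in liver, against 3.93 in intestine and a median of 1.62. C1:C2 read 2.57 in liver, against a median of 2.96. The index of Ben663 differed by 2.12 units, and by 1.58, below the threshold, with muscle and spleen both left out of the comparison. Liver, intestine and kidney were the top tissues in A and both inclusion junctions of Ben663.

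The exons called more skipped at a steady level and measured on both sides, Ben4131 and Ben888, stood apart mainly in the C1:C2 probe. Whether their higher C1:C2 values reflect skipping was not tested. The C1:C2 junction of Ben4131 read 6.02 in liver, against 2.49 to 3.23 in the other tissues, while its A probe read 3.32, against 2.32 to 3.37, and its C1 probe 2.98, against 2.25 to 2.96. The C1:C2 junction of Ben888 read 6.02 in liver, against 2.27 to 3.04 elsewhere, while A read 2.93, against 2.46 to 3.53, and C2 read 2.05, against 1.66 to 2.39. After centring, the inclusion junctions of Ben4131 were 0.51 (C1:A) and 0.37 (A:C2) units above the median of the others, and those of Ben888 1.25 and 0.02. The index differed by -2.76 in each, and A relative to the flanks by -0.23 in Ben4131 and -0.36 in Ben888, well under its threshold of 1.53.

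**Figure D5:**
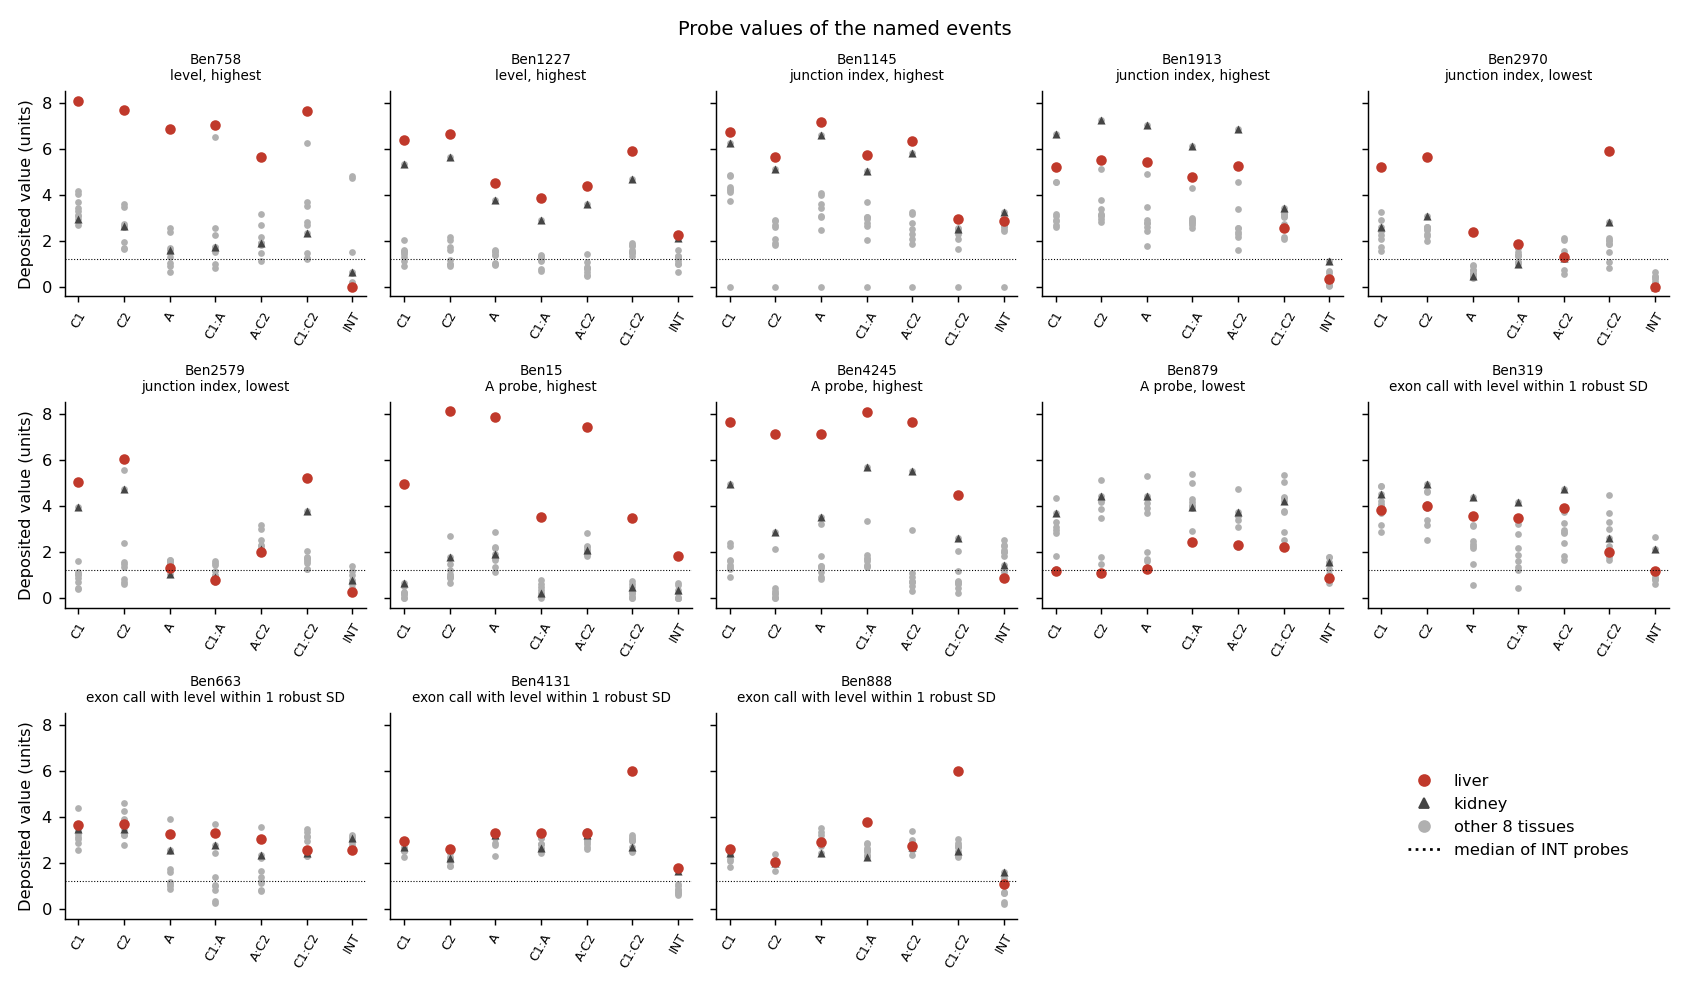
Deposited probe values of 13 named events, with liver in red, kidney as dark triangles and the other 8 tissues in grey. The horizontal axis gives the probe kind and the dotted line the median of the INT probes, 1.21. Ben1227, Ben1145, Ben4245 and Ben2579 show kidney between liver and the other tissues in most higher probes, and Ben4131 and Ben888 show liver apart in C1:C2.

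The counts depended on how the arrays were brought to a common scale. Quantile normalization, which gives all arrays the same distribution of values, left 65 events with a higher level in liver, 59 with a higher A probe and 17 more skipped exons. All of these were among the events called after median centring, and the liver array was the most spread of the 10. More included exons numbered 11, of which 9 were among the 14.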

How the data were processed

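Values of 21882 probes in 10 samples were used as a score deposited by the authors. Neither the labels nor the table header states the scale's base or transformation. No source used here gives the scanner, the dyes, the background correction or the probe sequences. The roles of probe kinds were read from their suffixes. The members, measures and thresholds were chosen with earlier results of these data known.

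Each array was centred on its median. The difference was liver minus the median of the other 9. The threshold was 4 robust SDs (median absolute deviation times 1.4826) of the differences of all events in all 10 tissues, recomputed under other scalings. No model was fitted. Named events were, per measure, the 2 highest and 2 lowest called ones with each probe of the measure (for the junction index, C1:C2 and the averaged inclusion junctions) above the INT median on both sides, or fewer where fewer passed. The planned gene lists and marker lists were not applied, since no gene names were paired with events. Alternatives covered scaling, comparator, threshold, filters and index. The software was matplotlib 3.10.9, pandas 2.3.3, numpy 2.4.6 and Python 3.11.15.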

Additional observations from a re-analysis of the deposited data

How the results depend on the processing

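No paired analysis was possible because liver and every other tissue are single samples without replicates. The filter on each flank, the comparator without muscle and spleen, and treating events at 0 in all 7 probes of a tissue as missing were chosen after seeing the data. Of the counts, higher levels numbered 65 under quantile normalization and 43 at 6 robust SDs, higher A probes 59 and 39, and more skipped exons 17 and 11. More included exons numbered 4 at 6 robust SDs. Lower levels and lower A probes numbered 0 and 0 at 6 robust SDs. Restricted to events measured on both sides, 9 exons were more included, 17 more skipped, 0 levels lower and 1 A probe lower. Without a condition on the body index 22 exons were more included. Against the mean of the other tissues 2 levels were lower. Without muscle and spleen in the comparator 7 levels and 5 A probes were lower, and with events at 0 in all 7 probes missing, 2 levels and 1 A probe. With each of the other tissues left out of the comparator in turn, higher levels numbered 114 to 133, lower levels 3 to 5, more included exons 15 to 19, more skipped exons 35 to 42, higher A probes 104 to 124 and lower A probes 2 to 5. Lower A probes numbered 5 without testis and 4 without brain, kidney or spleen. Fewer calls at a higher threshold or under a stricter filter follow from the construction, and the causes of the other shifts were not tested. The 13 named values kept their direction in all 231 recomputed values, and 6 of these fell short of the threshold, 3 of them at 6 robust SDs. Low signal and the stop at 0 limit low calls.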
